A study of Saccharomyces cerevisiae with 24 samples.

Results

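Budding yeast carrying 1 of 2 single-residue changes in the ribosome factor Dim1, E85Q or D87E, were compared after sulfur starvation in 8 of the 24 libraries of the study. The 4 E85Q libraries come from isolates 623 and 625 and the 4 D87E libraries from isolates 887 and 888, with 1 mRNA-seq and 1 ribosome footprint library of each isolate. They were chosen by genotype and medium. All strains share the CEN.PK laboratory background. E85Q cells carry the DIM1 allele with glutamine in place of the glutamate at residue 85, D87E cells the allele with glutamate in place of the aspartate at residue 87, and the WT strains 172 and 600 the unaltered gene. Cells of every genotype were grown to log phase in sulfur-free medium to which 1 mM methionine had been added, and the starved cultures then spent 2 h in sulfur-free medium without it. Cultures of the same 6 isolates harvested with methionine complete the 24 libraries. The mRNA and footprint libraries of a culture come from 1 biological sample, so each group holds 2 isolates per assay, and whether the 2 isolates of a genotype are separate clones is not given in the sources used here. The p-values below rest on the spread between isolates within a group, shared over the 6 groups of an assay. Those groups include WT and the cultures with methionine, so this is not the spread of the starved E85Q and D87E isolates alone. It may be technical.

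Dim1 is the methyltransferase that dimethylates a neighbouring pair of adenosines in the last helix of 18S rRNA, and it also takes part in the processing of the precursor of the small ribosomal subunit. Yeast that run out of sulfur switch on the uptake and assimilation of sulfur compounds, salvage them from proteins and glutathione, favour enzymes poor in methionine and cysteine, and shut down the making of ribosomes. A ribosome footprint is the stretch of mRNA that a ribosome shields from nuclease, so the footprint level of a gene follows how many ribosomes sit on its mRNA. Levels are given as RPKM, the deposited reads per kilobase of gene scaled to the mapped reads of the library. Differences are E85Q minus D87E on the scale log2(RPKM + 1), where a difference of 1 is a factor near 2 for genes well above the pseudocount of 1. Translation efficiency, TE, is the log2 footprint value minus the log2 mRNA value of the same culture. A pair of values after a genotype is in the order 623 then 625 for E85Q, 887 then 888 for D87E, and 172 then 600 for WT. A gene was called when limma's Benjamini-Hochberg adjusted p over the 4888 genes tested was below 0.05.

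Sequencing depth, recovered from the smallest steps in the RPKM values, was 30.0 and 30.9 M reads (M for mega) in the starved E85Q mRNA libraries and 27.7 and 28.6 M in those of D87E. The starved footprint libraries were deeper in E85Q, at 39.2 and 46.9 M reads, than in D87E, at 21.3 and 27.2 M, so depth moved with genotype in every footprint and TE result that follows, and its part in them was not tested. At these depths 3 reads on a gene of 1 kb correspond to between 0.0368 and 0.141 RPKM over all 24 libraries, a limit that covers counting error only. The isolates of a genotype resembled each other: the median SD between starved isolates was 0.0537 in E85Q and 0.0789 in D87E for mRNA, and 0.0717 in E85Q and 0.101 in D87E for footprints. The median absolute difference between the genotype means was 0.272 for mRNA and 0.228 for footprints. The strains have the transcripts of a haploid of mating type a in both genotypes: the 6 a-cell markers summed to 954 and 960 RPKM of mRNA in E85Q, against 1296 and 1021 RPKM in D87E, and the 4 alpha-cell markers to 16.7 and 15.6 RPKM in E85Q, against 27.0 and 25.9 RPKM in D87E. DIM1 itself (YPL266W, chromosome XVI, 39121 to 40077 of the R64 assembly) was at 17.2 and 17.7 RPKM of mRNA in E85Q and 18.1 and 15.8 RPKM in D87E, values that overlap between the genotypes (difference 0.04 ± 0.06 SE, adjusted p = 0.598), although the gene was called higher by 0.25 once each library was centred on its median. RPKM values do not show the residue change itself.

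By the main fit starved E85Q and D87E cells differed in 60% of tested genes in mRNA and in smaller shares in footprints and TE. The mRNA share moved with the scale, with 1119 genes higher and 1181 lower after quantile normalization. E85Q held more mRNA and more footprints of ribosomal proteins and of respiratory chain and glycolytic enzymes, and less of the iron regulon, of autophagy genes and of transporters for organic sulfur compounds. Of the 4888 genes, 649 had more mRNA in E85Q (13.3%) and 2283 had less (46.7%), so that 60% were called, with a median difference of -0.18. In footprints 1090 genes were higher (22.3%) and 1194 lower (24.4%), 46.7% in all, with a median of -0.02. In TE 1750 genes were higher (35.8%) and 433 lower (8.86%), 44.7% in all, with a median of 0.15. The split between higher and lower calls followed the centre of the values: with every library set to a common median, 1410 genes were higher and 1183 lower in mRNA, 1360 and 1008 in footprints, and 846 and 833 in TE. For all but 1 of the genes called in mRNA, and for all genes called in footprints and TE, both E85Q isolates lay on the same side of both D87E isolates, as they did in mRNA for 79.3%, in footprints for 69.9% and in TE for 72.4% of all genes tested. Differences of at least 2-fold were fewer, with 137 genes higher (2.8%) and 97 lower (1.98%) in mRNA, 122 higher (2.5%) and 89 lower (1.82%) in footprints, and 29 higher (0.593%) and 10 lower (0.205%) in TE.

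Most calls in the 2 assays did not oppose each other. Both mRNA and footprints were higher in E85Q for 414 genes and lower for 893. For 202 genes (4.13%) mRNA was lower while footprints were higher, and the reverse held for 10 genes (0.205%). After median centring 65 genes (1.33%) had lower mRNA and higher footprints, and 49 the reverse. Before centring a further 1188 genes had less mRNA in E85Q with no footprint call, and 794 of them had a higher TE. After centring this class held 576 genes, 280 of them with a higher TE. TE is footprints minus mRNA, so a higher TE is partly built into this class. In cells kept in methionine the same genotypes differed in 863 mRNAs (17.7%), of which 646 were higher in E85Q (13.2%) and 217 lower (4.44%), in the footprints of 223 genes (4.56%), of which 91 were higher (1.86%) and 132 lower (2.7%), and in the TE of 33 (0.675%). After median centring the mRNA split there was 182 higher and 391 lower.

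**Figure D1:**
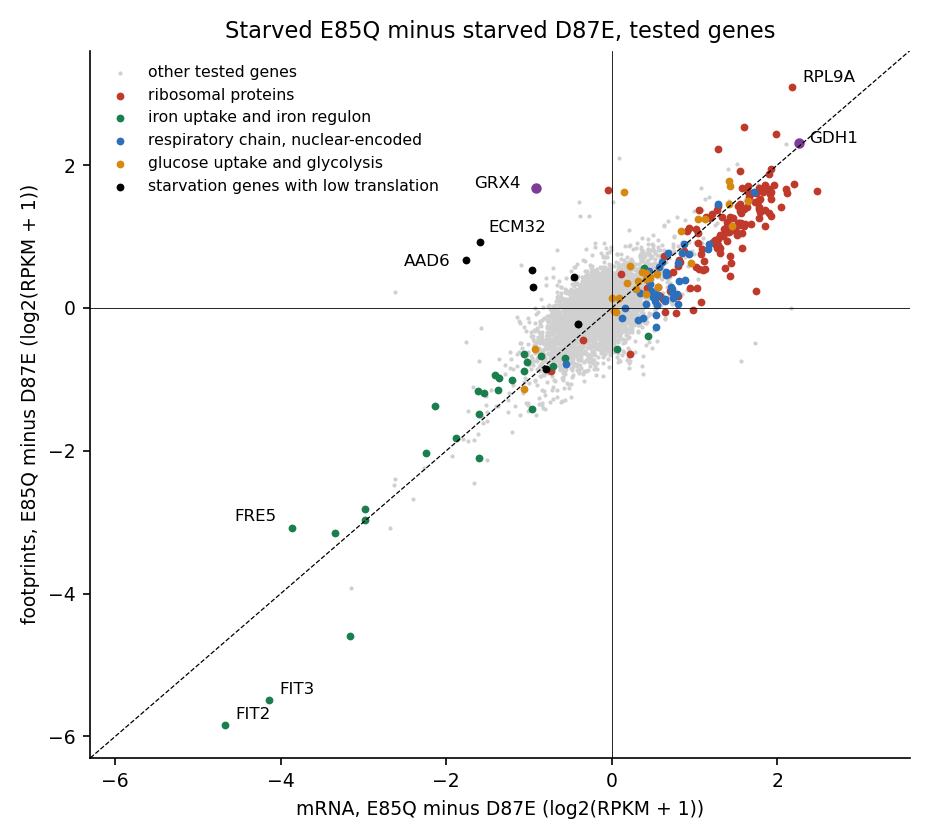
Difference of starved E85Q minus starved D87E in mRNA (horizontal axis) and in footprints (vertical axis), both on the log2(RPKM + 1) scale, for each of the 4888 tested genes; coloured points are gene lists, purple points are GRX4 and GDH1, and the dashed line marks equal differences. Ribosomal protein genes lie at the upper right, the iron regulon at the lower left, and ECM32, AAD6 and GRX4 at the upper left, with less mRNA and more footprints in E85Q.

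The proteins of the ribosome were higher in E85Q almost without exception in mRNA. Among the proteins of the 40S subunit, which Dim1 helps to mature, 50 of 54 tested genes had more mRNA in E85Q and none less, with a median difference of 1.50. Among those of the 60S subunit 69 of 73 had more and 1 less, with a median of 1.36. Over all genes 13.3% were higher in mRNA and 22.3% in footprints. In footprints 46 of the 40S genes were higher and 1 lower (median 1.23), and 61 of the 60S genes were higher and 1 lower (median 1.10), with 40 of these higher without isolate 888 and 38 without isolate 625. The median level over both lists was 228 and 330.3 RPKM of mRNA in E85Q, against 123 and 77.9 RPKM in D87E. In footprints it was 361 and 398 RPKM in E85Q, against 211 and 132 RPKM in D87E. The isolates of the genotypes did not overlap in these medians, but within D87E isolate 887 stood above isolate 888 by a median of 0.76 in mRNA and 0.69 in footprints, and within E85Q isolate 623 stood below isolate 625 by 0.41 in mRNA and 0.10 in footprints.

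Ribosomal protein genes took 6.25 and 8.20% of all summed RPKM in starved E85Q mRNA, against 3.49 and 2.19% in D87E and 2.32 and 2.07% in WT. In footprints the share was 6.37 and 7.48% in E85Q, against 4.02 and 2.68% in D87E and 3.72 and 2.57% in WT. Both E85Q isolates were above both D87E isolates and both WT isolates in each assay. A test of 2 against 2 libraries cannot give an exact p below 0.333, so these shares carry no test.

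**Figure D2:**
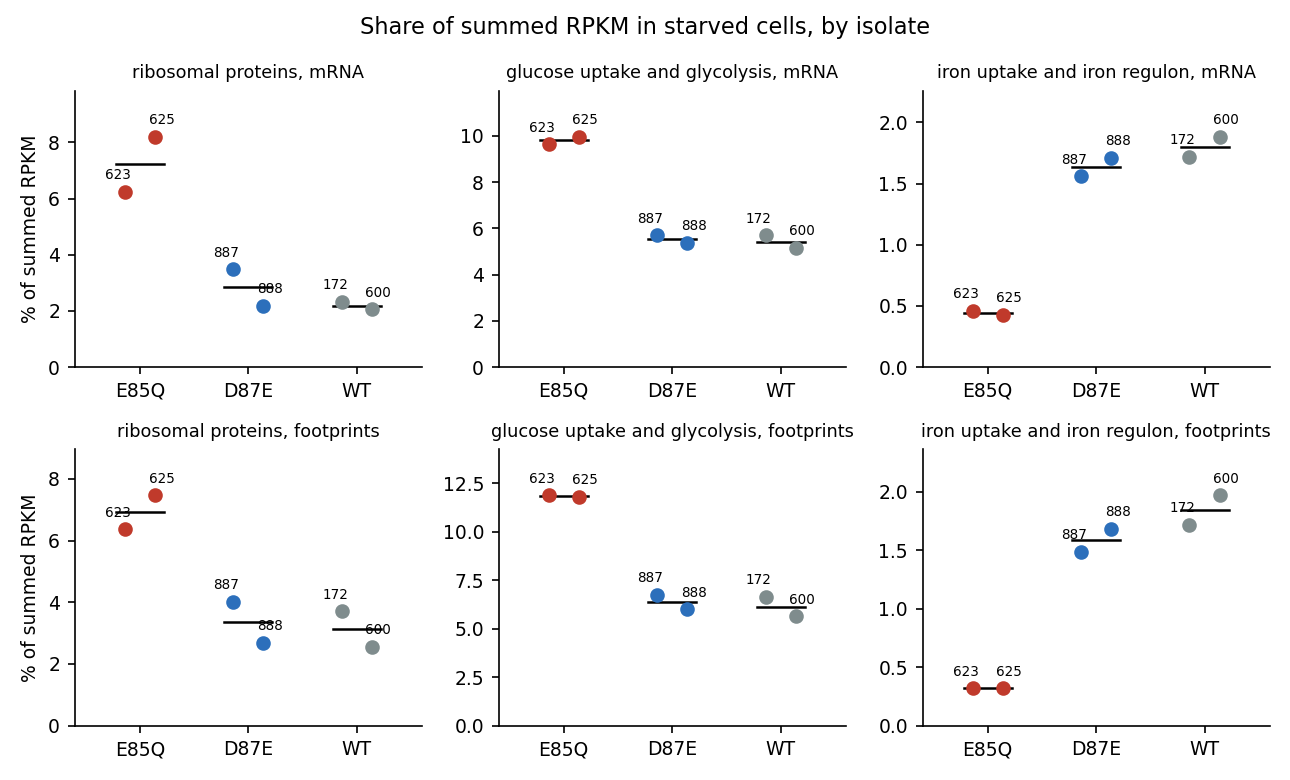
Share of summed RPKM taken by 3 gene lists in starved cells (vertical axis, % of all summed RPKM, starting at 0), in mRNA (top row) and footprints (bottom row); each point is 1 isolate with its number, and the bar is the mean of the 2 isolates. The E85Q isolates are above the others for ribosomal proteins and glycolysis and below them for the iron regulon in both assays.

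RPS24A, a protein of the small subunit, was at 101 and 122 RPKM of mRNA in E85Q, against 30.3 and 18.0 RPKM in D87E (2.20 ± 0.19 SE, adjusted p = 1.74e-05). Its footprints were at 440.3 and 433 RPKM in E85Q, against 219 and 78.0 RPKM in D87E (1.73 ± 0.47, adjusted p = 0.0131), with the D87E isolates far apart and both below E85Q. RPS10A mRNA was at 326 and 466 RPKM in E85Q, against 117 and 69.7 RPKM in D87E (2.10 ± 0.23, adjusted p = 5.08e-05). RPS31 makes a small-subunit protein fused to ubiquitin, and its footprints were at 793 and 886 RPKM in E85Q, against 196 and 121 RPKM in D87E (2.44 ± 0.26, adjusted p = 0.000121). RPL9A, a protein of the large subunit (YGL147C, chromosome VII, 227754 to 228329), had the largest footprint difference of all tested genes called higher in E85Q. Its mRNA was at 134 and 225 RPKM in E85Q, against 48.2 and 29.2 RPKM in D87E (2.18 ± 0.24), and its footprints at 248 and 289 RPKM in E85Q, against 36.8 and 25.1 RPKM in D87E (3.10 ± 0.36, adjusted p = 0.000185). RPL24A and RPL16B were higher by 2.11 and 1.96 in mRNA, and RPL3 by 1.05. Many of these genes have a near-identical copy, and how reads common to both copies were counted is not given in the sources used here, so the values of single copies are uncertain, here and for other close pairs such as SSB1 and SSB2, the enolases and the histones. RPS4A, which had the largest mRNA difference of all tested genes on the higher side (2.48 ± 0.52), rested on 56.6 and 45.3 RPKM in E85Q and 18.0 and 3.49 RPKM in D87E while its footprints were at 309 and 437 RPKM in E85Q and 178 and 77.0 RPKM in D87E, and RPL4A was listed at 0 mRNA in 1 starved isolate of each genotype.

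TE of ribosomal proteins leaned the other way from their amounts. Of the 127 tested genes 28 had a lower TE in E85Q and 4 a higher one, beside 8.86% and 35.8% of all genes. Their median was -0.30 beside 0.15 over all genes, and 40 were lower and 2 higher after centring. The lower count rested on 2 isolates: 6 genes were called lower without isolate 625 and 13 without isolate 888, against at most 37 without another. RPS27B was at 583 and 912 RPKM of mRNA and 697 and 720.4 RPKM of footprints in E85Q, against 362 and 202 RPKM of mRNA and 556 and 484 RPKM of footprints in D87E, which gave a TE difference of -0.98 ± 0.22 (adjusted p = 0.0056). This call was lost without isolate 625. The TE difference of RPL43B was -0.85 ± 0.20 (adjusted p = 0.00733), and that of RPS26B -0.71 ± 0.12 (adjusted p = 0.00124). The 4 genes with a higher TE included RPS20, at 0.94 ± 0.15 (adjusted p = 0.00103), and RPS2, at 0.93 ± 0.19 (adjusted p = 0.00353). RPS27A went against the rest of its list in footprints, with 387 and 312 RPKM in E85Q and 555 and 538 RPKM in D87E (-0.65 ± 0.13, adjusted p = 0.00321).

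Other parts of the translation machinery were higher in E85Q in smaller numbers, beside 13.3% of all genes higher in mRNA and 22.3% in footprints. For initiation factors and tRNA synthetases the counts depended on the isolates included. Of 31 initiation factors 14 had more mRNA and 6 less (median 0.14), and 15 had more footprints and 4 fewer (median 0.23). Without isolate 888 the higher counts were 7 in each assay, and without isolate 625 they were 6 in mRNA and 7 in footprints. Of 22 tRNA synthetases 8 had more mRNA and 1 less (0.17), and 11 had more footprints and none fewer (0.28). Without isolate 887 the higher counts were 16 in mRNA and 17 in footprints, and in footprints 6 without isolate 888 and 5 without isolate 625. Of 14 elongation and termination factors 7 had more mRNA and 3 less, and 6 had more footprints and 3 fewer. STM1, which binds idle ribosomes, was at 466 and 597 RPKM of mRNA in E85Q, against 241 and 156 RPKM in D87E (1.44 ± 0.20, adjusted p = 0.000217). YEF3, the fungal elongation factor eEF3, had footprints of 267 and 294 RPKM in E85Q and 136 and 104 RPKM in D87E (1.23 ± 0.17, adjusted p = 0.000469). RLI1, an iron-sulfur ATPase that recycles ribosomes after termination, had footprints of 56.2 and 57.1 RPKM in E85Q and 36.0 and 25.3 RPKM in D87E (0.89 ± 0.14, adjusted p = 0.000747). DOM34, which splits stalled and idle ribosomes, ran the other way, at 33.1 and 32.5 RPKM in E85Q and 48.9 and 52.2 RPKM in D87E (-0.61 ± 0.06, adjusted p = 0.000108). The chaperones SSB1 and SSB2, which bind nascent chains on the ribosome, had mRNA differences of 1.76 and 1.13. EAP1, which binds the cap factor eIF4E and represses translation, had fewer footprints, at 73.0 and 62.3 RPKM in E85Q and 83.0 and 93.7 RPKM in D87E (-0.38 ± 0.09, adjusted p = 0.00583).

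The factors that assemble ribosomes did not follow the ribosomal proteins. Among small-subunit assembly factors 3 of 73 had more mRNA in E85Q and 32 less, with a median of -0.22 beside -0.18 over all genes, and among large-subunit assembly factors 2 of 72 had more and 26 less (median -0.16). Footprint calls were mixed, with 10 small-subunit factors higher and 16 lower, and 6 large-subunit factors higher and 14 lower. Median centring left no direction, with 13 small-subunit factors higher and 14 lower in mRNA and 7 large-subunit factors higher and 10 lower. These counts moved with the isolates left out. Without isolate 888, 43 large-subunit factors had less mRNA and none more, and 3 small-subunit factors had more footprints and 24 fewer. Without isolate 887, 10 small-subunit and 9 large-subunit factors had more mRNA, and 16 and 17 of them had more footprints. Without isolate 625, 3 small-subunit factors had more footprints and 8 fewer, and without isolate 623, 6 had more. The number of large-subunit factors with more footprints was 2 without isolate 888 or 625 and 3 without isolate 623. NSR1, a nucleolar protein needed for 18S rRNA, was at 4.07 and 3.46 RPKM of mRNA in E85Q and 3.76 and 2.16 RPKM in D87E, with 2.59 and 3.33 RPKM in WT and no call. TSR1, a late factor of the small subunit, was at 6.12 and 6.32 RPKM in E85Q and 7.53 and 7.14 RPKM in D87E (-0.21 ± 0.05, adjusted p = 0.00737), with a difference of 0.00 and no call after median centring. RRN3, the initiation factor of RNA polymerase I, was lower at 16.5 and 13.2 RPKM in E85Q, against 38.1 and 51.8 RPKM in D87E (-1.52 ± 0.14, adjusted p = 2.11e-05). Among 13 regulators of ribosome genes 7 had less mRNA in E85Q and none more, or 6 less and 3 more after centring. The share lower before centring was near the 46.7% of all genes. CRF1, a corepressor of ribosomal protein genes, was at 40.2 and 26.4 RPKM of mRNA in E85Q, against 81.9 and 151 RPKM in D87E (-1.74 ± 0.26, adjusted p = 0.000331). STB3, a repressor of ribosome-making genes, had 33.6 and 33.2 RPKM in E85Q and 47.7 and 48.8 RPKM in D87E (-0.52 ± 0.08, adjusted p = 0.000302). The activators SFP1 and IFH1 were also lower in mRNA, with differences of -0.48 and -0.43.

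**Figure D3:**
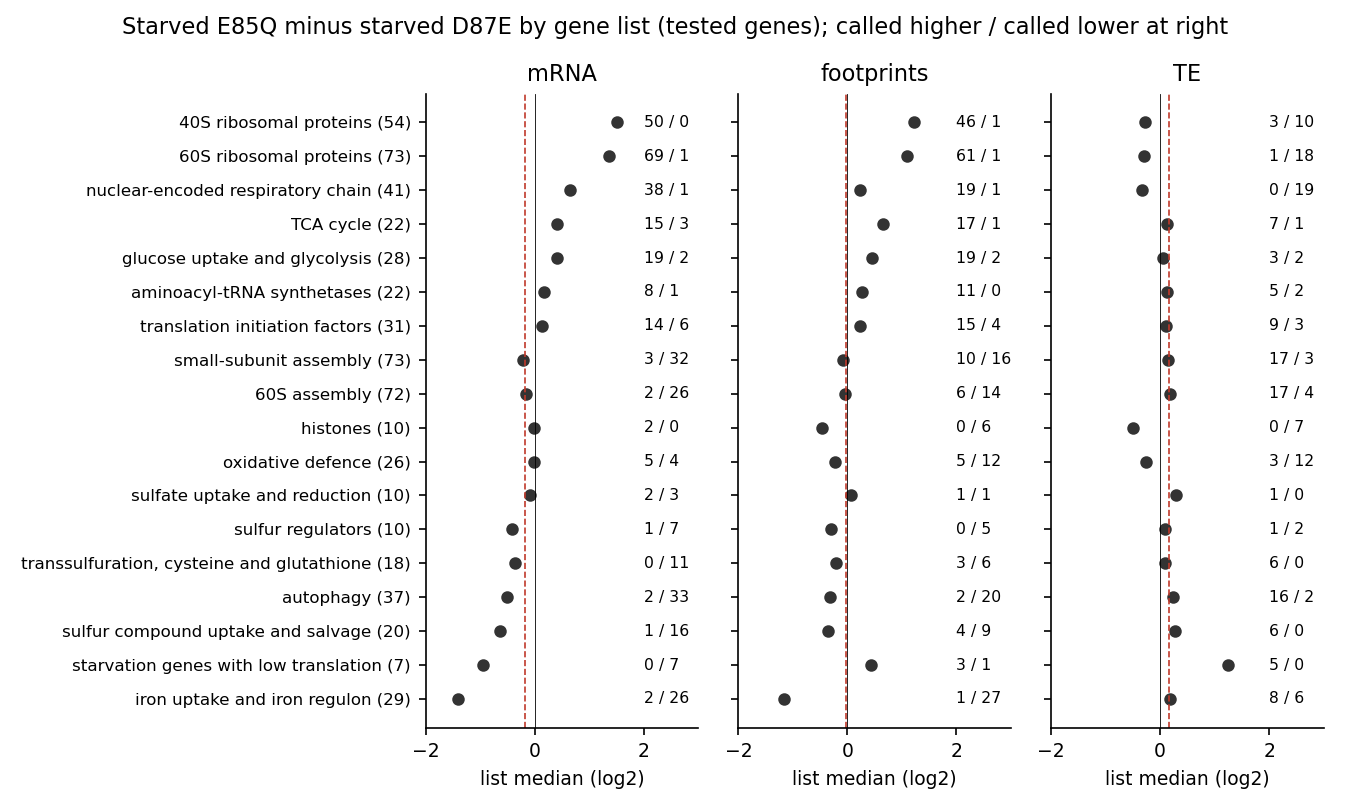
Median difference of E85Q minus D87E in starved cells for 18 gene lists (rows, with the number of tested genes) in mRNA, footprints and TE (horizontal axes, log2); numbers at the right of each panel are genes called higher and called lower, and the dashed line is the median over all tested genes. Ribosomal proteins are at the top with medians above 1 in mRNA and footprints, and the iron regulon is at the bottom with medians below -1 in both.

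The genes of iron uptake were far lower in E85Q. The iron regulon, which the activators Aft1 and Aft2 switch on when cells sense iron shortage, had 26 of 29 tested genes with less mRNA in E85Q and 2 with more, and 27 with fewer footprints and 1 with more. Over all genes 46.7% were lower in mRNA and 24.4% in footprints. The list medians were -1.41 in mRNA and -1.17 in footprints. With methionine 8 genes of the list were lower in each assay, beside 4.44% of all genes in mRNA and 2.7% in footprints. Of the 36 genes on the list FIT1, FRE2, FRE3, FRE4, FET4 and BIO5 fell under the level filter and were not tested, and ARN2 was listed at 0 in every starved library. FRE3 mRNA, untested, was at 7.43 and 5.93 RPKM in E85Q and 41.8 and 43.7 RPKM in D87E. The list took 0.463 and 0.427% of summed mRNA RPKM in E85Q, against 1.56 and 1.71% in D87E, and 0.322 and 0.321% of footprint RPKM in E85Q, against 1.49 and 1.68% in D87E. The isolates of a genotype lay close together and the genotypes did not overlap.

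FIT2 (YOR382W, chromosome XV, 1059531 to 1059992), a cell-wall mannoprotein that retains iron-bound siderophores, had the largest drop of all tested genes in both assays. Its mRNA was at 40.8 and 35.2 RPKM in E85Q, against 888 and 1103 RPKM in D87E (-4.67 ± 0.11, adjusted p = 6.45e-09), and its footprints at 78.0 and 45.4 RPKM in E85Q, against 3241 and 3714 RPKM in D87E (-5.84 ± 0.29, adjusted p = 1.15e-06). FIT3, of the same family, had 41.9 and 34.0 RPKM of mRNA in E85Q and 630.4 and 741 RPKM in D87E (-4.14 ± 0.13). FRE1 and FRE5 belong to the ferric reductases of the cell surface. FRE1 mRNA was at 20.9 and 18.9 RPKM in E85Q, against 212 and 209.5 RPKM in D87E (-3.34 ± 0.12), and FRE5 mRNA at 2.14 and 1.69 RPKM in E85Q, against 37.0 and 45.8 RPKM in D87E (-3.86 ± 0.19). SIT1, a siderophore transporter, had 38.0 and 32.0 RPKM in E85Q and 265 and 300.3 RPKM in D87E (-2.98 ± 0.10). TIS11, an RNA-binding protein that degrades mRNAs of iron-using enzymes, had 129.8 and 102 RPKM in E85Q and 888 and 949.6 RPKM in D87E (-2.99 ± 0.13), with 946 and 911 RPKM in WT. For each of these genes both E85Q isolates were far below both D87E isolates. FET3, the oxidase of high-affinity iron uptake, kept 448 and 404 RPKM in E85Q, against 1307 and 1317 RPKM in D87E (-1.62 ± 0.10). CCC1, which stores iron in the vacuole, had more footprints in E85Q, 90.7 and 83.6 RPKM against 59.9 and 57.7 RPKM in D87E (0.56 ± 0.07, adjusted p = 0.000227). ATX1, a copper chaperone, split between the assays with an mRNA difference of 0.44 and a footprint difference of -0.40. TE of the list had no common direction, with 8 genes higher and 6 lower, but FIT2 (-1.17 ± 0.25) and FIT3 (-1.35 ± 0.30) were lower, FIT2 not so without isolate 625, and LSO1, which iron shortage induces (-1.43 ± 0.25) rested on an mRNA of 0.269 and 1.31 RPKM in E85Q, near the pseudocount, and was not called with a pseudocount of 0.1.

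**Figure D4:**
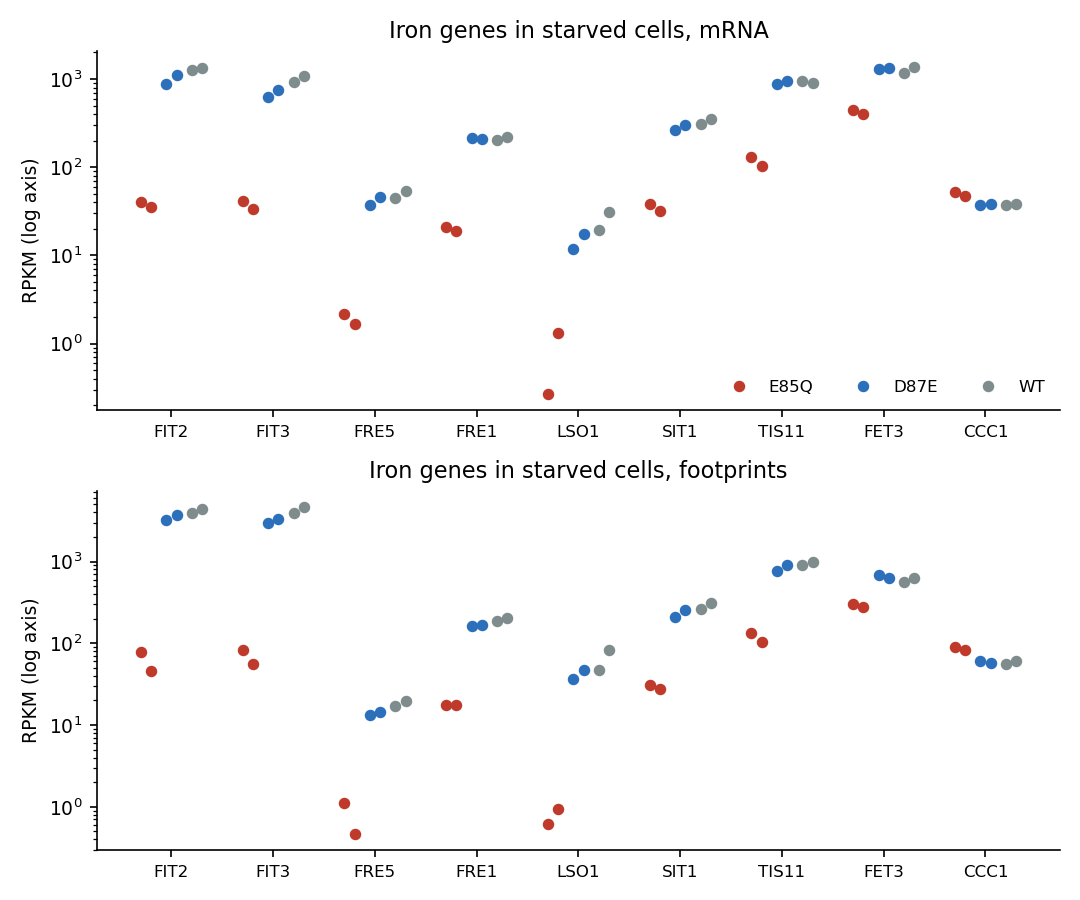
RPKM per isolate (log axis) of 9 iron genes in starved E85Q, D87E and WT cells, in mRNA (top) and footprints (bottom); each point is 1 isolate. E85Q lies below D87E and WT for every gene shown except CCC1.

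Subunits of the respiratory chain and enzymes of the tricarboxylic acid cycle, several of which carry iron-sulfur clusters, were higher in E85Q. Of 41 nuclear-encoded subunits of the respiratory chain 38 had more mRNA in E85Q and 1 less (median 0.64), and 19 had more footprints and 1 fewer (median 0.23). Over all genes 13.3% were higher in mRNA and 22.3% in footprints. SDH2, the iron-sulfur subunit of succinate dehydrogenase, was at 170.3 and 185 RPKM of mRNA in E85Q, against 55.8 and 50.4 RPKM in D87E (1.72 ± 0.08, adjusted p = 4.95e-07), and at 319 and 285 RPKM of footprints, against 103 and 92.0 RPKM in D87E (1.62 ± 0.10). The other subunits of that enzyme moved with it, SDH1 by 1.29, SDH3 by 1.17 and SDH4 by 1.16 in mRNA. COR1, a core subunit of the cytochrome bc1 complex, differed by 0.90 ± 0.07 in footprints, and COX4, a subunit of cytochrome oxidase, by 0.73 ± 0.10 in mRNA with no footprint call. After centring TE was lower in E85Q for 30 of the 41. Before centring it was lower for 19 and higher for none, beside 8.86% of all genes lower. Without isolate 625 the count was 7, and without isolate 888 it was 12. COX7 had the lowest TE of the list, with 505 and 541 RPKM of mRNA and 1638 and 1306 RPKM of footprints in E85Q, against 421 and 310.3 RPKM of mRNA and 1812 and 1714 RPKM of footprints in D87E (-0.80 ± 0.17, adjusted p = 0.00479, not called without isolate 625).

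In the tricarboxylic acid cycle 15 of 22 genes had more mRNA in E85Q and 3 less (median 0.42), and 17 had more footprints and 1 fewer (median 0.66). Over all genes 13.3% were higher in mRNA and 22.3% in footprints. The iron-sulfur enzyme ACO1, aconitase, was at 266 and 250.4 RPKM of mRNA in E85Q, against 104 and 89.1 RPKM in D87E (1.42 ± 0.08, adjusted p = 1.58e-06). BIO2, the iron-sulfur enzyme that closes the ring of biotin, was at 33.5 and 32.9 RPKM of mRNA in E85Q and 13.2 and 9.20 RPKM in D87E (1.51 ± 0.12), and at 29.2 and 28.5 RPKM of footprints in E85Q and 7.10 and 5.72 RPKM in D87E (2.02 ± 0.10). The biotin transporter VHT1 ran the other way, at 66.7 and 73.5 RPKM in E85Q and 238 and 195 RPKM in D87E (-1.61 ± 0.12). The machinery that builds iron-sulfur clusters had 16 of 29 genes lower and 3 higher in mRNA, or 13 lower and 9 higher after centring. Before centring 46.7% of all genes were lower, so the list as a whole was not far from that share. Its scaffold ISU1 had 418 and 359 RPKM of footprints in E85Q, against 765 and 880.4 RPKM in D87E (-1.08 ± 0.11, adjusted p = 8.19e-05). The second scaffold, ISU2, had 129.7 and 110.0 RPKM in E85Q, against 296 and 349.9 RPKM in D87E (-1.42 ± 0.10, adjusted p = 1.49e-05). The targeting factor ISA1 was higher, with 109 and 90.0 RPKM in E85Q and 61.9 and 56.2 RPKM in D87E (0.74 ± 0.09, adjusted p = 0.000238).

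Of 20 tested genes of ammonium and nitrogen use 7 had more mRNA in E85Q and 7 less, beside 13.3% and 46.7% of all genes. After centring 10 had more and 2 less. In footprints 10 were higher and 3 lower, beside 22.3% and 24.4% of all genes. Without isolate 888 the number with less mRNA was 4. GDH1, of that list, and LEU1, an enzyme of leucine synthesis, were among the 10 largest rises in mRNA. GDH1 (YOR375C, chromosome XV, 1041678 to 1043042), the NADP-dependent glutamate dehydrogenase that fixes ammonium, was at 694 and 745 RPKM of mRNA in E85Q, against 159.7 and 139 RPKM in D87E (2.26 ± 0.08, adjusted p = 8.13e-08), and its footprints at 986 and 1049.9 RPKM in E85Q, against 221 and 190.2 RPKM in D87E (2.31 ± 0.10, adjusted p = 7.11e-07). GLT1, the iron-sulfur enzyme glutamate synthase, was at 113 and 117 RPKM of mRNA in E85Q and 52.0 and 35.2 RPKM in D87E (1.40 ± 0.15). LEU1, the iron-sulfur isomerase of leucine synthesis, was at 189.7 and 212 RPKM of mRNA in E85Q and 51.7 and 40.7 RPKM in D87E (2.10 ± 0.11), and LEU2, the dehydrogenase after it, at 161 and 164 RPKM of footprints in E85Q and 51.5 and 48.9 RPKM in D87E (1.67 ± 0.09). LYS4, the iron-sulfur enzyme homoaconitase of lysine synthesis, was at 74.0 and 79.1 RPKM of footprints in E85Q and 32.6 and 19.8 RPKM in D87E (1.55 ± 0.18). In these 5 genes both E85Q isolates were above both D87E isolates by more than the isolates of either genotype were apart.

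The wider set of amino acid synthesis genes under the activator Gcn4 had no common direction in starved cells. In mRNA 9 of its 65 genes were higher and 15 lower, beside 13.3% and 46.7% of all genes. In footprints 19 were higher and 7 lower, beside 22.3% and 24.4% of all genes. Without isolate 888 the footprint counts were 9 higher and 17 lower, without isolate 887 they were 31 and 4, and median centring turned the mRNA counts to 21 higher and 7 lower. GCN4 itself had overlapping footprints, 295 and 258 RPKM in E85Q and 433 and 169 RPKM in D87E (0.02 ± 0.32, adjusted p = 0.957). SNZ1, of vitamin B6 synthesis, was lower at 76.9 and 75.5 RPKM of mRNA in E85Q, against 193 and 153 RPKM in D87E (-1.16 ± 0.11, adjusted p = 3.21e-05). Its partner SNO1 was at 13.6 and 12.3 RPKM in E85Q, against 45.3 and 38.2 RPKM in D87E (-1.61 ± 0.11). The aromatic amino acid breakdown enzyme ARO10 was at 1.62 and 1.62 RPKM in E85Q and 9.67 and 25.4 RPKM in D87E (-2.68 ± 0.33), and CHA1, the serine and threonine deaminase, at 43.9 and 32.9 RPKM in E85Q and 133 and 165 RPKM in D87E (-1.94 ± 0.17). The nitrogen repressor DAL80 was lower in mRNA with a difference of -1.07, while the general amino acid permease GAP1 and the ammonium permease MEP2 had more footprints, by 0.89 and 0.59.

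Glycolytic genes were higher in E85Q, with 19 of 28 higher and 2 lower in each assay and medians of 0.42 in mRNA and 0.45 in footprints. Over all genes 13.3% were higher in mRNA and 22.3% in footprints. The glycolytic genes took 9.63 and 9.96% of summed mRNA RPKM in E85Q, against 5.69 and 5.37% in D87E, and 11.9 and 11.8% of footprint RPKM in E85Q, against 6.75 and 6.02% in D87E. With methionine the list leaned the other way, with 1 gene higher and 9 lower in mRNA, beside 13.2% and 4.44% of all genes. PDC1, the main pyruvate decarboxylase, was at 5039.9 and 5291 RPKM of mRNA in E85Q, against 1851 and 1466 RPKM in D87E (1.65 ± 0.15, adjusted p = 2.26e-05). ENO2, the main enolase of glucose-grown cells, was at 4037 and 4835 RPKM in E85Q and 1914 and 1357 RPKM in D87E (1.45 ± 0.20), and CDC19, pyruvate kinase, at 4304 and 4331 RPKM in E85Q and 2284 and 1926 RPKM in D87E (1.04 ± 0.13). The hexose transporter HXT4 had footprints of 133 and 140.2 RPKM in E85Q and 41.8 and 40.1 RPKM in D87E (1.71 ± 0.08, adjusted p = 7.11e-07), while HXT1 and HXT5 were lower in footprints, with differences of -0.57 and -1.13.

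PDC6, the pyruvate decarboxylase that contains little sulfur and that sulfur-starved yeast use in place of PDC1, was lower in E85Q. Its mRNA was at 1745 and 1189 RPKM in E85Q, against 3681 and 4850.2 RPKM in D87E and 4809 and 5438 RPKM in WT (-1.55 ± 0.17, adjusted p = 5.08e-05), and its footprints at 2619.5 and 1919 RPKM in E85Q, against 6187 and 7665 RPKM in D87E (-1.62 ± 0.35, adjusted p = 0.00477). The low-sulfur enolase ENO1 was higher, at 2657 and 2521 RPKM in E85Q and 1978 and 2168 RPKM in D87E (0.32 ± 0.12, adjusted p = 0.036). HSP26, a small heat-shock protein, had 411 and 260.1 RPKM in E85Q and 611 and 1776 RPKM in D87E (-1.67 ± 0.41, adjusted p = 0.00533), with the D87E isolates far apart. The list of low-sulfur isozymes and their partners had 10 of 15 genes higher and 3 lower in mRNA, beside 13.3% and 46.7% of all genes. It holds both kinds of enzyme, so these counts do not describe the low-sulfur isozymes alone.

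Of 10 genes that import and reduce sulfate 2 had more mRNA in E85Q and 3 less, beside 60% of all genes called in mRNA. In footprints 1 was higher and 1 lower, beside 46.7% of all genes called, and without isolate 888, 623 or 625 none was higher. MET3, the sulfurylase that activates sulfate, was at 4879.6 and 4796 RPKM of mRNA in E85Q and 4499.7 and 4639 RPKM in D87E, and at 7091 and 6570.0 RPKM of footprints in E85Q and 6826 and 7145 RPKM in D87E (-0.03 ± 0.38, adjusted p = 0.951). The 95% interval of the footprint difference ran from -0.89 to 0.82. SUL1 footprints, of the main sulfate transporter, overlapped at 2025 and 2249 RPKM in E85Q and 2119 and 2047 RPKM in D87E. MET5, a subunit of sulfite reductase, was higher in E85Q at 2505 and 2472 RPKM of mRNA, against 1931 and 1672 RPKM in D87E (0.47 ± 0.07, adjusted p = 0.000365). The sulfate transporter SUL2 was lower at 877 and 883 RPKM in E85Q, against 1183 and 1151 RPKM in D87E (-0.41 ± 0.07, adjusted p = 0.000494). MET17, which joins sulfide to a carbon chain, was at 8769 and 8492 RPKM in E85Q and 7605 and 8318 RPKM in D87E and was not called (0.12 ± 0.09, adjusted p = 0.258).

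Uptake and salvage of organic sulfur stood apart from sulfate assimilation, with 16 of 20 genes lower and 1 higher in mRNA (median -0.63) and 9 lower and 4 higher in footprints (median -0.36), or 5 lower without isolate 625. Over all genes 46.7% were lower in mRNA, with a median of -0.18, and 24.4% were lower in footprints. YIL166C, a transporter-like protein that sulfur starvation induces, was at 373 and 244 RPKM of mRNA in E85Q, against 1525 and 2313 RPKM in D87E (-2.63 ± 0.22, adjusted p = 1.39e-05). OPT1, the glutathione transporter, was at 293 and 264 RPKM in E85Q and 693 and 753 RPKM in D87E (-1.37 ± 0.07). JLP1, which releases sulfite from sulfonates, was at 3592 and 2708 RPKM in E85Q and 5879.9 and 7075 RPKM in D87E (-1.05 ± 0.14). The S-methylmethionine permease MMP1, the cysteine transporter YCT1 and the methionine permease MUP1 differed by -1.02, -0.82 and -0.46 in mRNA, and for each of them both E85Q isolates were below both D87E isolates. In glutathione and cysteine metabolism 11 of 18 genes had less mRNA and none more, beside 46.7% of all genes lower and 13.3% higher. DUG3, which degrades glutathione, was at 274 and 253 RPKM in E85Q and 455 and 469 RPKM in D87E (-0.81 ± 0.07). GSH1, the first enzyme of glutathione synthesis, had opposite calls, with 410.1 and 405 RPKM of mRNA in E85Q against 490.5 and 496 RPKM in D87E (-0.28 ± 0.05, not called after centring) and 341 and 371 RPKM of footprints in E85Q against 266 and 262 RPKM in D87E (0.43 ± 0.06). Of the 10 regulators of sulfur genes 7 had less mRNA and 1 more, or 4 and 3 after centring. The activator MET4 was at 69.4 and 62.6 RPKM in E85Q and 114 and 131 RPKM in D87E (-0.88 ± 0.07), its partner MET32 at 208 and 192 RPKM of footprints in E85Q and 359 and 479.6 RPKM in D87E (-1.05 ± 0.21), and MET30, the F-box protein that restrains MET4, at 165 and 149.8 RPKM of mRNA in E85Q and 233 and 272 RPKM in D87E (-0.68 ± 0.09).

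Autophagy genes were lower in E85Q, with 33 of 37 lower and 2 higher in mRNA (median -0.51) and 20 lower and 2 higher in footprints (median -0.32). Over all genes 46.7% were lower in mRNA (median -0.18) and 24.4% in footprints (median -0.02). The median level of the list was 26.8 and 25.4 RPKM of mRNA in E85Q, against 39.4 and 44.0 RPKM in D87E and 39.8 and 41.3 RPKM in WT. ICY2, also known as ATG41, was at 1244 and 1162 RPKM of mRNA in E85Q, against 3686 and 3935 RPKM in D87E (-1.66 ± 0.10, adjusted p = 1.54e-06), and at 2399 and 1734 RPKM of footprints in E85Q, against 9632 and 12856 RPKM in D87E (-2.45 ± 0.17). The kinase ATG1 was at 73.1 and 75.5 RPKM of mRNA in E85Q and 126 and 130.4 RPKM in D87E (-0.78 ± 0.06). ATG8, the ubiquitin-like protein of the autophagosome membrane, was at 317 and 259 RPKM of footprints in E85Q and 503 and 580.4 RPKM in D87E (-0.91 ± 0.11, adjusted p = 0.000179). ATG9, a membrane protein of autophagosome formation, had mRNA of 51.7 and 45.8 RPKM in E85Q and 98.7 and 121 RPKM in D87E but footprints of 21.2 and 21.4 RPKM in E85Q and 22.9 and 23.8 RPKM in D87E, and so a higher TE in E85Q (1.02 ± 0.10, adjusted p = 0.000206). Among 14 vacuolar proteases and their partners 8 had fewer footprints and none more, or 4 fewer without isolate 625. The share of all genes with fewer footprints was the 24.4% given above. The protease PRB1 was at 1556 and 1193 RPKM of footprints in E85Q and 2127 and 3147 RPKM in D87E (-0.93 ± 0.19), and PAI3, an inhibitor of vacuolar proteinase A, at 57.3 and 47.2 RPKM in E85Q and 99.0 and 132 RPKM in D87E (-1.12 ± 0.13).

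General stress genes had no common direction. Of 37 targets of Msn2 and Msn4, 13 had less mRNA in E85Q and 3 more, or 8 less without isolate 625 and 23 less without isolate 887. In footprints 10 of the targets were lower and 3 higher. Over all genes 46.7% were lower and 13.3% higher in mRNA, and 24.4% were lower and 22.3% higher in footprints. GRE1, a hydrophilin, was at 48.8 and 23.5 RPKM of mRNA in E85Q and 152 and 623 RPKM in D87E (-3.15 ± 0.56, adjusted p = 0.000806), with the isolates of each genotype at least 2-fold apart. HSP12 mRNA overlapped between the genotypes, at 865 and 601 RPKM in E85Q and 433 and 822 RPKM in D87E. CTT1, the cytosolic catalase, had more footprints on no more mRNA. Its mRNA was at 84.7 and 64.0 RPKM in E85Q and 91.8 and 90.9 RPKM in D87E, its footprints at 77.0 and 55.3 RPKM in E85Q and 31.4 and 41.8 RPKM in D87E, and its TE differed by 1.14 ± 0.11 (adjusted p = 0.000206). Other genes of oxidative defence leaned the other way, with 12 of 26 lower and 3 higher in TE, or 7 lower without isolate 887 or 888 and 4 without isolate 625. Over all genes 8.86% were lower and 35.8% higher in TE. The TE difference was -0.60 ± 0.10 for the thioredoxin TRX2 and -0.46 ± 0.13 for the superoxide dismutase SOD1.

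A handful of mRNAs abundant in starved D87E carried few ribosomes there and more in E85Q. GRX4 (YER174C, chromosome V, 538434 to 539168), a glutaredoxin that reports iron status to Aft1, was at 51.2 and 49.9 RPKM of mRNA in E85Q, against 101 and 91.5 RPKM in D87E (-0.91 ± 0.11, adjusted p = 0.000108). Its footprints were at 31.4 and 30.6 RPKM in E85Q, against 9.84 and 8.28 RPKM in D87E (1.67 ± 0.09, adjusted p = 1.91e-06), so its TE was higher by 2.59 ± 0.15 (adjusted p = 8.91e-06). ECM32 (YER176W, chromosome V, 541690 to 545055), a helicase with a role in translation termination, was at 23.0 and 24.1 RPKM of mRNA in E85Q and 78.6 and 68.5 RPKM in D87E (-1.60 ± 0.09). Its footprints were at 7.80 and 7.80 RPKM in E85Q and 3.96 and 3.34 RPKM in D87E (0.92 ± 0.08), and its TE was higher by 2.52 ± 0.11 (adjusted p = 7.69e-07). AAD6, an aryl-alcohol dehydrogenase gene, was at 120.0 and 94.0 RPKM of mRNA in E85Q and 336 and 392 RPKM in D87E, with footprints of 12.2 and 10.4 RPKM in E85Q and 6.81 and 6.63 RPKM in D87E and a TE difference of 2.43 ± 0.18 (adjusted p = 5.52e-05). In these 3 genes the mRNA of both E85Q isolates was below, and the footprints above, both D87E isolates.

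ECM32 and AAD6 belong to a set of 7 genes that earlier results of these data had picked out for low translation in starved cells, so the set's direction is not independent evidence. All 7 had less mRNA in E85Q, with a median of -0.95; 3 had more footprints and 1 fewer, and 5 had a higher TE. CBP2, a splicing factor of the mitochondria, was at 16.2 and 15.6 RPKM of mRNA and 4.35 and 4.64 RPKM of footprints in E85Q, against 32.1 and 32.0 RPKM of mRNA and 2.39 and 3.25 RPKM of footprints in D87E (TE 1.50 ± 0.13, adjusted p = 9.69e-05). JIP5, which is needed for 60S subunits, was at 59.6 and 57.0 RPKM of mRNA in E85Q and 112 and 114 RPKM in D87E with footprints under 1 RPKM in both, 0.670 and 0.589 in E85Q and 0.389 and 0.279 in D87E, levels at which the scale log2(RPKM + 1) compresses a ratio. Its TE difference was 1.24 ± 0.17 (adjusted p = 0.000599). SOH1, a subunit of the Mediator complex, had a TE higher by 0.89 ± 0.26, and RAD59, a recombination protein, was lower in both assays with an uncalled TE of -0.06 ± 0.08.

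Among other genes with a large TE difference, SER3, of serine synthesis, had 27.0 and 28.4 RPKM of mRNA and 16.8 and 16.4 RPKM of footprints in E85Q, against 54.5 and 66.6 RPKM of mRNA and 13.0 and 8.53 RPKM of footprints in D87E (TE 1.70 ± 0.30, adjusted p = 0.00168). PDC5, the alternative pyruvate decarboxylase, had uncalled mRNA, 15.9 and 13.4 RPKM in E85Q and 12.6 and 13.5 RPKM in D87E, and footprints of 14.2 and 18.6 RPKM in E85Q and 4.10 and 5.13 RPKM in D87E (TE 1.47 ± 0.22, adjusted p = 0.000905). CHO2 and YCF1 also had more footprints and no mRNA call on the higher side. CHO2, a phospholipid methyltransferase that consumes S-adenosylmethionine, was at 379 and 431 RPKM of footprints in E85Q and 302 and 293 RPKM in D87E, with a TE difference of 0.73 ± 0.12 (adjusted p = 0.00148). YCF1, the vacuolar pump for glutathione conjugates, was at 46.5 and 48.6 RPKM of footprints in E85Q and 29.2 and 23.4 RPKM in D87E (TE 0.91 ± 0.11, adjusted p = 0.000415). The highest TE difference, of GLY1 at 2.84 ± 0.93, came from mRNA of 0 and 2.94 RPKM in E85Q and 13.1 and 9.51 RPKM in D87E beside footprints of 218 and 256 RPKM in E85Q and 211 and 195 RPKM in D87E. It is uncertain, since the gene was listed at 0 mRNA in isolate 623 and was not called without isolate 623, 887 or 888.

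**Figure D5:**
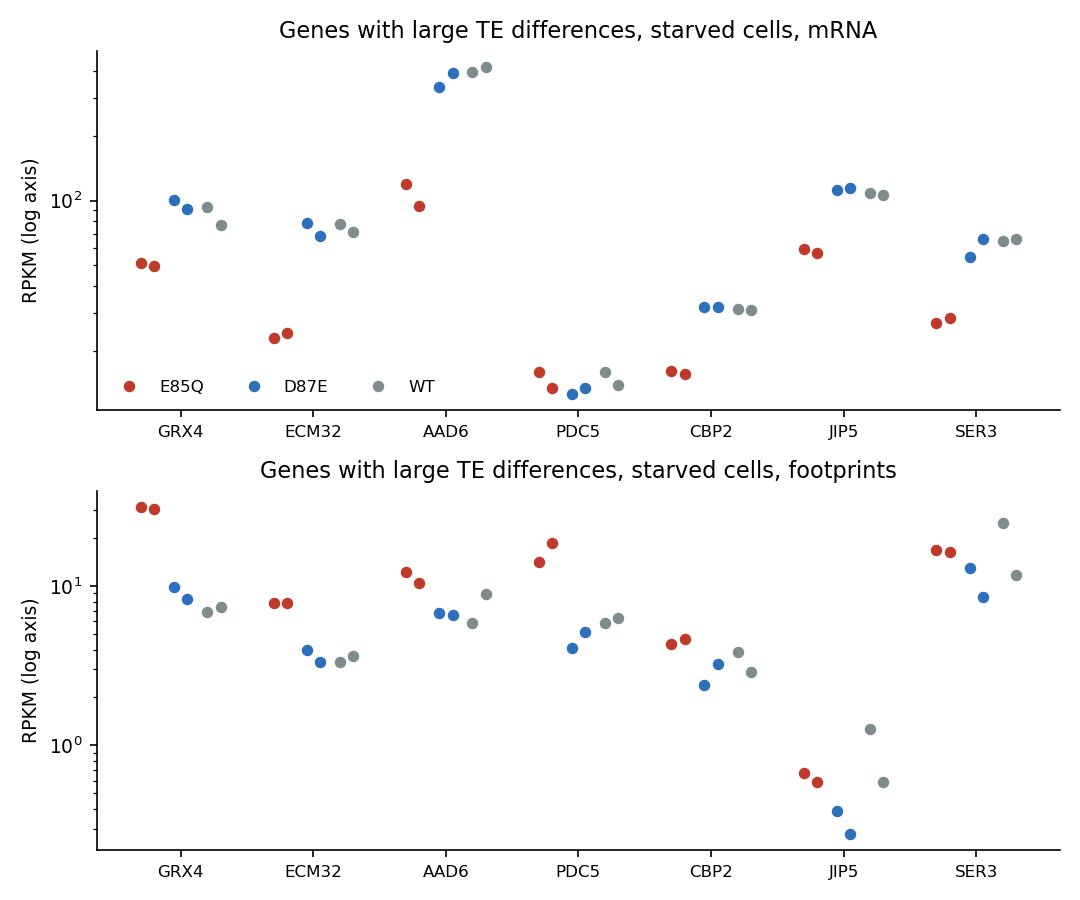
RPKM per isolate (log axis) of 7 genes with large TE differences in starved E85Q, D87E and WT cells, in mRNA (top) and footprints (bottom); each point is 1 isolate. For GRX4, ECM32, AAD6, CBP2 and JIP5 the E85Q points lie below the D87E points in mRNA and above them in footprints.

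Lower TE in E85Q was rarer before median centring, with 433 genes lower and 1750 higher. After centring the counts were near equal, at 833 lower and 846 higher. Before centring 8.86% of all genes were lower in TE and 24.4% in footprints. Of 10 histone genes 7 had a lower TE and none a higher one (median -0.50), and 6 had fewer footprints while 2 had more mRNA and none less. Without isolate 625 the counts were 4 in TE and 3 in footprints, and without isolate 888 that in TE was 4. HTB1, a histone H2B, was at 901 and 844 RPKM of mRNA in E85Q and 1010.4 and 872 RPKM in D87E, values that overlap. Its footprints were at 2418 and 2014 RPKM in E85Q and 3694 and 3446 RPKM in D87E (-0.69 ± 0.12, adjusted p = 0.00168). HSK3, a kinetochore protein of the DASH complex, had footprints of 129 and 109 RPKM in E85Q and 206 and 221 RPKM in D87E and a TE difference of -1.05 ± 0.16 (adjusted p = 0.00101). Of the 7 tested genes encoded in mitochondrial DNA 3 had a lower TE, but none did without isolate 888 or without isolate 625, and 2 did without isolate 623. ATP6, a subunit of the ATP synthase, was at 101 and 125 RPKM of footprints in E85Q and 207 and 222 RPKM in D87E (-0.93 ± 0.27, adjusted p = 0.019), with mRNA of 169.7 and 376 RPKM in the E85Q isolates, which were over 2-fold apart. The footprint call of ATP6 was lost without isolate 623 or 888.

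With methionine fewer genes differed between the genotypes, as the counts above give. Ribosomal proteins then took 32.2 and 32.0% of summed mRNA RPKM in E85Q, against 31.1 and 30.9% in D87E. In mRNA 1 of their 127 tested genes was higher and 2 lower, beside 13.2% and 4.44% of all genes. The lower genes were RPS9A, at 119 and 127 RPKM of mRNA in E85Q and 408 and 422 RPKM in D87E (-1.75 ± 0.25, adjusted p = 0.00422), and RPS22B, at 208 and 176 RPKM in E85Q and 623 and 539 RPKM in D87E (-1.59 ± 0.25, adjusted p = 0.00551). Both genes were higher in E85Q after starvation, RPS9A at 62.9 and 70.3 RPKM in E85Q and 39.4 and 18.5 RPKM in D87E. The Gcn4 list was lower in E85Q with methionine in 32 of 65 genes and higher in none in mRNA, beside 4.44% of all genes lower. Footprints of GCN4 were at 117 and 116 RPKM in E85Q and 239.5 and 241 RPKM in D87E with methionine (-1.03 ± 0.32, adjusted p = 0.0951), on mRNA of 1200.4 and 1166 RPKM in E85Q and 1136 and 1215 RPKM in D87E, a difference that did not pass the threshold. HIS4, of histidine synthesis, was at 407 and 489 RPKM of mRNA in E85Q and 715 and 685 RPKM in D87E with methionine (-0.65 ± 0.15, adjusted p = 0.0189). Sulfate assimilation genes had more footprints in E85Q there for 8 of 10 genes, beside 1.86% of all genes higher. MET3 was at 39.8 and 86.1 RPKM of footprints in E85Q and 11.3 and 6.58 RPKM in D87E (2.63 ± 0.38, adjusted p = 0.00823), on mRNA of 13.8 and 13.4 RPKM in E85Q and 11.9 and 13.2 RPKM in D87E.

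The difference between the genotypes depended on the medium for 2819 genes in mRNA (57.7%), 1717 in footprints (35.1%) and 1828 in TE (37.4%, with 4.48% of genes called lower), by the test of the E85Q starvation change minus the D87E starvation change. FIT2 had an interaction of -4.35 ± 0.16 in mRNA (adjusted p = 3.19e-07). With methionine it was at 8.02 and 7.003 RPKM in E85Q and 9.02 and 10.2 RPKM in D87E. LEU1 had one of 2.36 ± 0.16 (adjusted p = 1.36e-05), with 533 and 595 RPKM in E85Q and 679 and 669 RPKM in D87E with methionine. GDH1 had one of 2.16 ± 0.12 (adjusted p = 4.83e-06), with 1001 and 987 RPKM in E85Q and 899 and 954 RPKM in D87E with methionine. For these 3 genes the genotypes lay close together with methionine and far apart without it. GRX4 differed in the same direction in footprints in both media, with 32.2 and 29.7 RPKM in E85Q and 17.1 and 17.9 RPKM in D87E with methionine, but its TE interaction was 2.33 ± 0.21 (adjusted p = 0.000586).

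Against WT, where both comparisons use the same starved WT libraries, E85Q and D87E are given side by side. Of mRNAs 767 were higher and 2222 lower in E85Q than in WT (61.1% called), and 1008 and 1591 in footprints (53.2%). Limma called no gene in D87E against WT in mRNA or footprints and 1 in TE, with 402, 778 and 633 genes at an unadjusted p below 0.05. Starved WT isolates had 1249 and 1339 RPKM of FIT2 mRNA, 146 and 147 RPKM of GDH1, 47.8 and 43.6 RPKM of SDH2 and 4250.0 and 3949 RPKM of ICY2. For GDH1 mRNA the differences from WT were 2.29 ± 0.08 in E85Q and 0.02 ± 0.08 in D87E. For GRX4 footprints they were 1.98 ± 0.09 in E85Q and 0.31 ± 0.09 in D87E, and for RPL9A footprints 2.07 ± 0.36 in E85Q and -1.03 ± 0.36 in D87E. A p that misses the threshold does not show that D87E and WT are alike, and ribosomal proteins of D87E isolate 887, at 3.49% of summed mRNA RPKM, lay above both WT isolates.

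Between isolates of one genotype, most of the 5 genes that differed most in mRNA were near-identical copies listed at 0 in 1 isolate. RPL4B was listed at 0 RPKM in isolate 623 and at 13.0 RPKM in isolate 625, and RPS29A was at 23.7 RPKM in isolate 623 and 63.3 RPKM in isolate 625. In D87E GRE1 was at 152 RPKM in isolate 887 and 623 RPKM in isolate 888, and RPS4A at 18.0 RPKM in isolate 887 and 3.49 RPKM in isolate 888. In both genotypes the isolate with less ribosomal protein mRNA, 623 in E85Q and 888 in D87E, was the one with more GRE1 mRNA.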

How the data were processed

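The authors deposited 1 RPKM value per gene and library (reads per kilobase of gene, scaled to the mapped reads of the library) in 1 table for mRNA-seq and 1 for ribosome footprints of 18 to 34 nt, per the file headers, without counts. Bowtie 1.1.2, TopHat2 2.1.1 and the sacCer3 genome are named in the submitters' processing notes. How reads that map to more than 1 gene were counted is not given in the sources used here, and pooling of the footprint libraries after barcoding is stated in the labels' protocols. Depth was estimated from the smallest steps between the RPKM values of genes, since only part of the values came out as whole reads, and so no count test was run.

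Samples were grouped by genotype and medium from the labels. Values were tested as log2(RPKM + 1) with limma 3.58.1 in R 4.3.3 (group means of 6 groups of 2 libraries per assay, trended variance, two-sided), over the 4888 of 6304 genes with a mean of at least 5 RPKM in the 12 libraries of both tables. TE was fitted on per-culture differences. The test was tried on simulated data. P-values were Benjamini-Hochberg adjusted over all genes tested, with a threshold of 0.05. Alternatives were median centring, quantile normalization, pseudocounts of 0.1 and 10, a filter of 20 RPKM or none, fits to 4 or 6 starved libraries, no variance trend, an isolate block and leaving out each isolate.

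The samples and gene lists were chosen with earlier results of these data known. Genes are named by a rule: DIM1; the 10 largest called differences in each direction and measure with isolates that do not overlap; the 5 largest interactions; up to 4 called genes per list; the members of a list marked as central; and the 5 largest gaps between isolates. TMT1 was added after its values were seen. Gene positions are those of RefSeq's R64 assembly, which is the sacCer3 sequence. Figures were drawn with matplotlib 3.10.9 under Python 3.11.15, with pandas 2.3.3 and numpy 2.4.6.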

Additional observations from a re-analysis of the deposited data

Results flagged for a closer look

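For 30 genes and measures, the 5 largest in each direction, the change on starvation differed between E85Q and D87E by the interaction test over all genes. Each value is the starvation change of E85Q minus that of D87E on the log2 scale. In mRNA it was 3.01 for RPS9A, 2.69 for RPS22B, 2.58 for RPS4A, 2.36 for LEU1 and 2.16 for GDH1, against -4.35 for FIT2, -3.97 for FIT3, -3.94 for COS1, -3.84 for FRE5 and -3.54 for LSO1.

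In footprints the differences were 3.30 for RPS9A, 2.90 for RPL9A, 2.85 for RPS2, 2.66 for RPS31 and 2.65 for LEU1 on the positive side. On the negative side they were -5.59 for FIT3, -5.53 for FIT2, -4.84 for LSO1, -4.08 for YIL166C and -3.86 for GRE1.

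In TE the positive differences were 5.74 for COS1, 2.33 for GRX4, 2.31 for ECM32, 2.07 for PDC5 and 2.03 for AAD6. The negative ones were -2.63 for MET3, -2.62 for SUL1, -2.15 for PDC6, -2.04 for JLP1 and -1.98 for YCT1. COS1 belongs to a subtelomeric family of near-identical genes, and its mRNA was listed at 0 in starved isolates 625 and 887, so its values are uncertain. For MET3 the starved footprints were 7091 and 6570.0 RPKM in E85Q and 6826 and 7145 RPKM in D87E, and those with methionine 39.8 and 86.1 RPKM in E85Q and 11.3 and 6.58 RPKM in D87E. For SUL1 the footprints with methionine were 10.1 and 25.8 RPKM in E85Q and 2.22 and 0.914 RPKM in D87E, on mRNA of 1.57 and 1.53 RPKM in E85Q and 1.99 and 1.53 RPKM in D87E.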

How the results depend on the processing

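Of 7920 recomputed values of single named genes 7335 stayed on the same side of the threshold with the same direction, 577 were no longer called, 3 were newly called and 5 turned round. The 5 were DIM1 mRNA without D87E isolate 888 (-0.0505, against 0.132 without isolate 887), and the TE after quantile normalization of PRB1 (0.0795), ARO9 (-0.0025), PBI2 (0.0098) and HHT2 (0.0807). Counts of called genes moved with the scale. Median centring gave 1410 mRNAs higher and 1183 lower, 846 TE values higher and 833 lower and 1026 TE interactions; quantile normalization gave 1119 and 1181 mRNAs, 833 and 673 TE values, 1713 mRNA interactions and 907 TE interactions. A filter of 20 RPKM, which tests fewer genes, gave 1122 mRNAs lower, 771 footprints lower, 930 TE higher, 1609 mRNA interactions and 1051 TE interactions. Fits to 4 starved libraries called 538 footprints higher and 634 lower, and fits to 6 called 677 higher; both use fewer libraries.

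Without 1 isolate, the lone sample being assumed to vary like the other groups, counts ran from 481 to 754 mRNAs higher and from 1734 to 2125 lower, from 785 to 1116 footprints higher and from 760 to 1289 lower, and from 1031 to 1477 TE values higher and from 141 to 430 lower. Interactions ran from 2301 to 2879 in mRNA, from 1196 to 2186 in footprints and from 1147 to 1801 in TE. Leaving out E85Q isolate 625 gave the lowest count in every one of these ranges. For lower TE values the next lowest count came without D87E isolate 888. The cause was not tested.

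E85Q and D87E share no isolate number, so a replicate block can pair only the 2 media of 1 isolate. Fitted as a random block it gave 649 mRNAs higher and 2283 lower, 1097 footprints higher and 1190 lower, and 1743 TE values higher and 432 lower. Fitted as a fixed block, for the interaction alone, it gave 2763, 1760 and 1874 interactions in mRNA, footprints and TE. The ribosomal protein share over tested genes alone was 7.31% of mRNA in E85Q and 2.89% in D87E. With 2 isolates a genotype, no exact test of a single value can pass the threshold, and values near 1 RPKM are compressed by the pseudocount.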

Other observations

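Phospholipid and inositol genes had more footprints in starved E85Q than in D87E for 13 of 25 tested genes and fewer for 1 (median 0.29), beside 22.3% of all genes higher, while in mRNA 7 were higher and 9 lower. ITR1, the myo-inositol transporter, was at 388 and 368 RPKM of footprints in E85Q, against 171 and 171 RPKM in D87E (1.14 ± 0.10, adjusted p = 2.75e-05 by limma). OPI3, which with CHO2 turns phosphatidylethanolamine into phosphatidylcholine, was at 555 and 499.9 RPKM in E85Q, against 283 and 345 RPKM in D87E (0.75 ± 0.13, adjusted p = 0.00128). INO1, the inositol synthase, was not called in mRNA, at 61.6 and 44.99 RPKM in E85Q and 54.5 and 68.4 RPKM in D87E, values that overlap.

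Among 36 cell wall genes 15 had fewer footprints in E85Q and 8 more, beside 24.4% of all genes lower and 22.3% higher. DSE1, a daughter-cell-specific protein, was at 189 and 165 RPKM of mRNA in E85Q, against 359 and 458 RPKM in D87E (-1.19 ± 0.11, adjusted p = 1.93e-05), and SCW11, a glucanase-like wall protein, at 189 and 155 RPKM of footprints in E85Q, against 305 and 361 RPKM in D87E (-0.95 ± 0.10, adjusted p = 0.000134). CTS1, the chitinase that separates mother and daughter cells, was at 637 and 627 RPKM of footprints in E85Q, against 1039.8 and 1130.3 RPKM in D87E (-0.78 ± 0.08, adjusted p = 0.000105). With methionine CTS1 footprints were 516 and 535 RPKM in E85Q and 501 and 499 RPKM in D87E. Of 24 cyclins and G1 regulators 11 had less mRNA in E85Q and none more, or 6 less and 4 more after centring, and the share lower was near the 46.7% of all genes called lower in mRNA. PCL5, a cyclin that marks Gcn4 for degradation, was at 53.2 and 44.96 RPKM of footprints in E85Q, against 114 and 151 RPKM in D87E (-1.41 ± 0.16, adjusted p = 0.00017).

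Of 20 amino acid permease genes 13 had less mRNA in E85Q and 2 more, or 7 and 5 after centring, beside 46.7% of all genes lower before centring. BAP3, which takes up branched-chain amino acids and cysteine, was at 16.3 and 16.0 RPKM of mRNA in E85Q, against 33.9 and 33.7 RPKM in D87E (-1.02 ± 0.07, adjusted p = 4.59e-06). AGP1, a broad-range permease, ran the other way at 13.6 and 12.4 RPKM in E85Q, against 7.71 and 7.74 RPKM in D87E (0.68 ± 0.07, adjusted p = 3.01e-05). In the branch that joins homoserine to methionine 4 of 9 genes had more footprints and none fewer, beside 22.3% of all genes higher, and 2 had more without isolate 888, 623 or 625. MET13, the folate enzyme of that branch, was at 213 and 235 RPKM of footprints in E85Q, against 156 and 132 RPKM in D87E (0.64 ± 0.11, adjusted p = 0.00158).

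TMT1, which methylates trans-aconitate, lies between GRX4 and ECM32, the genes with the largest TE differences after GLY1, at chromosome V, 539464 to 540363 of R64, and was looked up after those values were seen. Its mRNA was at 186 and 175 RPKM in E85Q, against 572 and 506 RPKM in D87E (-1.57 ± 0.11, adjusted p = 4.44e-06). Its footprints were at 228 and 245 RPKM in E85Q, against 777 and 596 RPKM in D87E (-1.52 ± 0.16, adjusted p = 9.31e-05), so that TMT1 was lower in both assays and had no TE call (0.05 ± 0.11). All 3 neighbouring genes thus had less mRNA in E85Q, and GRX4 and ECM32 had more footprints.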
